A study of Mus musculus with 6 samples.

Results

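The genes described here are those of the Wnt signalling pathway on a mouse expression array: ligands, receptors, secreted inhibitors and the factors that carry the signal to DNA. Members were taken by gene name: every probe named for a numbered Wnt, Fzd, Sfrp, Dkk or Rspo gene, or for Lrp4, Lrp5, Lrp6, Wif1, Tcf7, Tcf7l1, Tcf7l2, Lef1, Axin1, Axin2, Ctnnb1, Nkd1, Nkd2, Lgr4, Lgr5 or Notum. This gave 94 probes for 57 genes, of 56605 probes for 27195 named genes on the array. The rule used names only, but the members were chosen with earlier results of these data known. Counts over them therefore describe the list and are no independent support.

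The study compared bone marrow stromal cells (BMSCs, the adherent non-blood cells of marrow that can form bone and fat cells) of NONMMUT002667-KO mice, in which a long non-coding RNA gene was knocked out, with those of wild-type (WT) mice. There were 3 KO and 3 WT samples, all labelled male, each on 1 one-colour array. Femurs were crushed and treated with collagenase, a sort then kept cells with Sca-1 and CD29 but without CD45 and CD11b, which were cultured to the first passage before RNA was taken. The labels give no strain, no age, no knockout construct and no number of animals per sample. Every p-value thus reflects only how these 6 samples vary, which may be partly technical. A description field and the RNA protocol speak of human blood, against the titles, source names and organism, which were followed.

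Wnt proteins are secreted ligands that bind Frizzled receptors together with the co-receptors Lrp5 or Lrp6. In the best-known branch the signal stops the destruction of beta-catenin, which then enters the nucleus and activates genes with the DNA-binding factors of the Tcf/Lef family. In bone marrow this branch is known to favour bone-forming osteoblasts over fat cells, and secreted proteins of the Sfrp, Dkk, Wif1 and Notum kinds hold it in check.

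Of non-control spots, 49.0% to 53.0% on KO arrays and 54.3% to 56.7% on WT arrays were well above background, and the number of arrays limits the precision. All 6 arrays lay on 1 slide, with KO arrays in slide row 2 and WT arrays in row 1, so slide row and genotype cannot be told apart. Xist, which silences an X chromosome in female cells, was bright on the arrays of KO replicate 1 (log2 signal -0.36) and WT replicate 3 (-0.53), where the Y-linked gene Eif2s3y was not above background, although all samples were labelled male. No probe carried the name of the knocked-out RNA, so the genotype could not be checked on its target. The mRNAs of the sort's negative markers were bright in both groups: Ptprc (CD45) averaged 3.52 in KO and 3.32 in WT samples, and Itgam (CD11b) averaged 4.14 in KO and 4.02 in WT samples. Of 14 macrophage and monocyte genes, 13 were well above background on all 6 arrays, although the sort was set to remove cells with CD45 and CD11b.

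Signals are given on a log2 scale relative to the 75th percentile of their own array, so a value of 0 marks a probe at that percentile. A level says how bright a probe was and is compared here only between samples of the same probe. A difference is KO minus WT of the group means, with the standard error (SE) from limma. For each gene the brightest of its tested probes is given, and tested probes are those that cleared the scanner's background threshold in all 3 samples of KO, of WT or of both.

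Probes are shown for Tcf7, Wnt10b, Wnt4 and Fzd1, on which the results below mainly turn, for the pathway target Axin2 and for Notum, whose tested probes gave different values. The names give the position of the whole probe on build mm9, in the files' coordinates, and the letters are the first 30 of its 60 bases, 5′ to 3′, as deposited. Where a probe lies relative to exons was not assigned here.
Tcf7, brightest probe, chr11:52066008-52066067, minus strand: tagtcactcatttctcaatccaaagatcat
Tcf7, other tested probe, chr11:52066114-52066173, minus strand: ttttttcattctcgctgtagatagcctgaa
Wnt10b, brightest probe, chr15:98602209-98602268, minus strand: gggtgggaatggataatttattttactgag
Wnt10b, other tested probe, chr15:98602897-98602956, minus strand: tgctgtgtgatgagtgtaaagtcacagagt
Wnt4, chr4:136855342-136855401, plus strand: tatgaggctccttggcattgtgacatcccc
Fzd1, chr5:4754003-4754062, minus strand: caaatgccgatacatacataggacctaaat
Axin2, tested probe, chr11:108811980-108812039, plus strand: ttctactttagactgtaaattatgcattat
Notum, brightest probe, chr11:120515209-120515268, minus strand: gtccctcccagcccccactgatcatgttcg
Notum, other tested probe, chr11:120518888-120519237, minus strand: tgacgtttggagtggggcttcacccaagtc

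Among the genes chosen by name, 32 of 38 tested had a negative difference, and the smallest p-values belonged to the DNA-binding factor Tcf7 (1.79-fold lower in KO), the receptor Fzd1 (1.53-fold) and the ligands Wnt10b (1.48-fold), Wnt4 (1.94-fold) and Wnt5b (1.56-fold), whose KO and WT values did not overlap. No Wnt gene passed an adjusted p of 0.05. Of the 57 genes, 33 had a probe well above background on all 6 arrays, 11 on 1 to 5 arrays and 13 on none. The test covered 38 genes (60 probes), and 19 genes did not pass the filter on dim probes. Of the 38, Axin2, Fzd9, Wnt11, Wnt6 and Lef1 passed through the WT arrays only, which fixes the side on which they could differ, so counts over the 38 are given as a description.

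At an adjusted p under 0.05, limma called 0 of the 38 Wnt genes, beside 0.176% of the 15371 genes tested (23 lower and 4 higher in KO). Over probes, it called 0 of 60 Wnt probes, beside 0.0594% of 28607. At an unadjusted p under 0.05, 9 Wnt genes (23.7%) were lower in KO, beside 8.03% of all genes, and 0 were higher, beside 6.94% of all genes. The 3 KO values lay wholly below the 3 WT values in 10 genes (26.3%), beside 10.4% of all genes, and wholly above in 0, beside 12% of all genes. The difference was negative for 32 of the 38 genes (84.2%), beside 44.2% of all genes, and its median was -0.21 on the log2 scale, beside 0.02 over all genes. Leaving out KO replicate 1 gave a median of -0.13, as did leaving out KO replicate 2. Between arrays, the median level of the tested Wnt genes had an SD of 0.139, pooled over groups. With 1 sample left out, the negative share ran from 68.4% (WT replicate 1) to 89.5% (KO replicate 3), and it was 73.7% without the arrays with Xist signal. Of the 33 genes tested when every array had to be well above background, 27 had a negative difference (81.8%), beside 42.3% of all genes so filtered. At an unadjusted p under 0.05, 9 of the 33 were lower, beside 7.5% of the 14300 genes then tested.

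**Figure D1:**
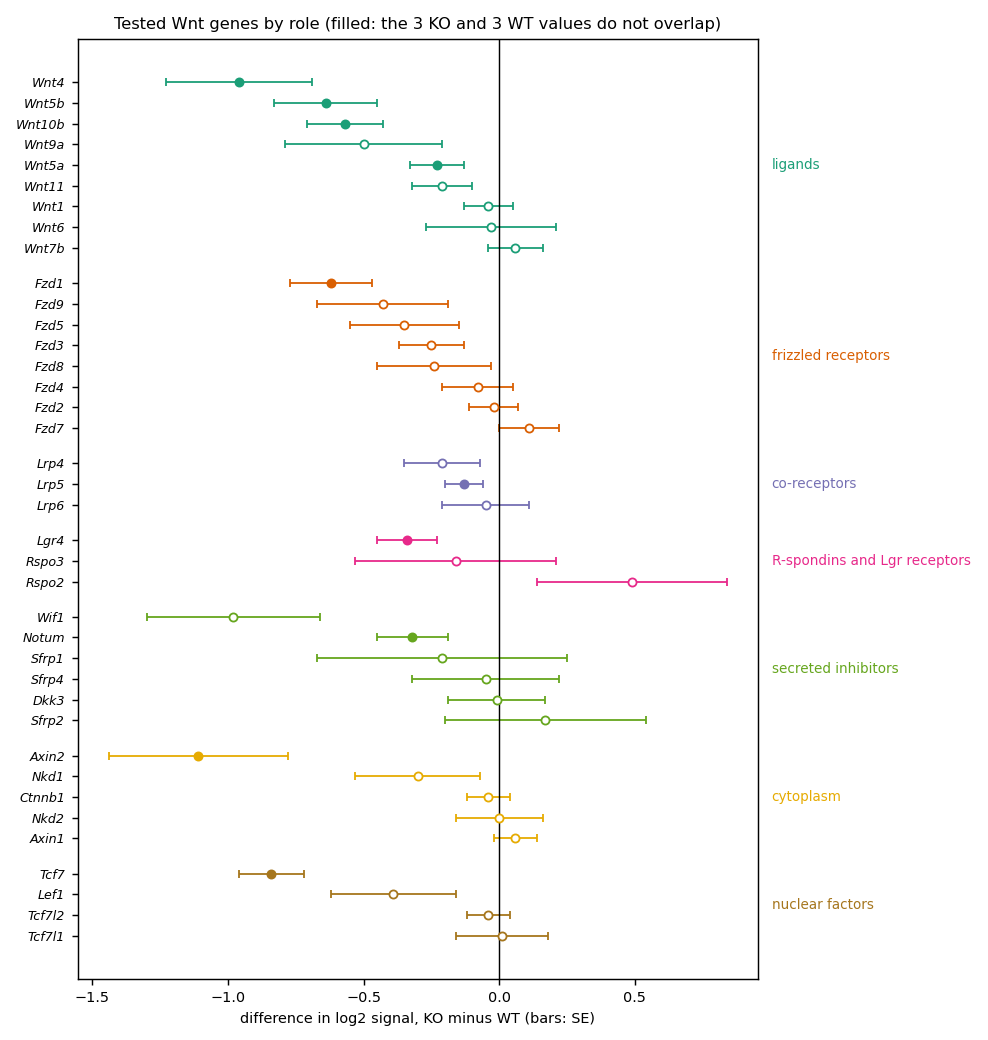
Difference in log2 signal, KO minus WT (horizontal axis), of the 38 tested Wnt genes, grouped by role; points are limma estimates and bars their SE, and filled points mark genes whose 3 KO and 3 WT values do not overlap. All 10 filled points lie left of 0, from Axin2 at -1.11 to Lrp5 at -0.13, and the open point farthest left is Wif1 at -0.98.

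Among the ligands, 9 of 19 genes were tested, 3 were lower at an unadjusted p under 0.05 and 8 had a negative difference. Wnt10b, a ligand of the beta-catenin branch known in mice to promote bone formation, had log2 signals of -0.94, -1.31 and -1.24 in KO samples, against -0.81, -0.43 and -0.54 in WT samples. Every KO value was below every WT value. The difference was -0.57 (SE 0.14), 1.48-fold lower in KO (limma adjusted p = 0.139). Its other probe read -3.41, -3.76 and -4.25 in KO samples, against -2.81, -2.90 and -2.98 in WT samples, a difference of -0.91 (SE 0.20), although only 2 of the KO arrays were well above background there. Both Wnt10b probes thus had KO below WT without overlap, but the other probe entered the test through the WT arrays only, which favours lower KO values.

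Wnt4, a ligand needed for kidney and female reproductive tract development, had 1.66, 0.56 and 1.26 in KO samples, against 2.04, 2.02 and 2.30 in WT samples. The groups did not overlap, and the KO samples were spread more widely (SD 0.55) than the WT samples (SD 0.15), with KO replicate 2 lowest. The difference was -0.96 (SE 0.27), 1.94-fold lower in KO (limma adjusted p = 0.181). Without KO replicate 2 it was -0.66, still past an unadjusted p of 0.05.

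Wnt5b, a ligand that mostly acts outside the beta-catenin branch, had -0.19, -0.74 and -0.26 in KO samples, against -0.01, 0.48 and 0.27 in WT samples. The groups did not overlap, with a difference of -0.64 (SE 0.19; limma adjusted p = 0.195). The other Wnt5b probe read -1.95, -2.67 and -2.22 in KO samples, against -1.92, -1.43 and -0.46 in WT samples, a difference of -1.01 (SE 0.38). Its highest KO value lay just under its lowest WT value.

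Wnt5a, the closest relative of Wnt5b, had -0.30, -0.31 and -0.05 in KO samples, against -0.03, -0.02 and 0.08 in WT samples. These values did not overlap either, by a narrow margin, and the difference of -0.23 (SE 0.10) missed an unadjusted p of 0.05. A further Wnt5a probe gave -0.27 (SE 0.25) with overlapping groups. The remaining tested ligands all overlapped between groups. Wnt9a, involved in joint formation, had a difference of -0.50 (SE 0.29), with WT replicate 3 (-1.23) far above the other WT samples (-2.33 and -2.13). Wnt1, mutated in inherited bone fragility of humans, differed by -0.04 (SE 0.09), Wnt7b by 0.06 (SE 0.10) and Wnt6 by -0.03 (SE 0.24). Wnt11 cleared background on 0 KO arrays and 3 WT arrays. It averaged -4.07 in KO and -3.86 in WT samples, the groups overlapped, and it had entered the test through the WT arrays only, so no size of the difference is given.

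The other 10 ligand genes were not tested. Wnt2, Wnt2b, Wnt3, Wnt3a, Wnt8a, Wnt8b, Wnt9b, Wnt10a and Wnt16 were not well above background on any array. Wnt7a was so by 1 of its 2 probes, on KO replicate 3 and WT replicate 3 only.

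Of the Frizzled receptors, 8 of 10 genes were tested and 7 had a negative difference. Fzd1, a receptor for ligands of the beta-catenin branch, had 1.05, 0.74 and 1.29 in KO samples, against 1.65, 1.75 and 1.54 in WT samples. No KO value reached the lowest WT value. The difference was -0.62 (SE 0.15), 1.53-fold lower in KO (limma adjusted p = 0.128).

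Fzd9, which supports osteoblast function in mice, had -3.57, -4.35 and -3.47 in KO samples, against -3.37, -3.16 and -3.56 in WT samples. The groups overlapped and only 2 KO arrays were well above background, with a difference of -0.43 (SE 0.24) that was -0.16 without KO replicate 2. Fzd3, known for axon guidance, had -3.41, -3.63 and -3.41 in KO samples, against -3.12, -3.45 and -3.12 in WT samples, a difference of -0.25 (SE 0.12) with overlap. Neither receptor passed an unadjusted p of 0.05.

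Fzd5, a receptor needed for gut and placental vessel development, read differently by its probes. The brightest gave -2.15, -2.99 and -2.55 in KO samples, against -2.28, -2.16 and -2.22 in WT samples, with overlap and a difference of -0.35 (SE 0.20), which became -0.13 when KO replicate 2 was left out and -0.55 when KO replicate 1 was. The other gave -4.10, -4.47 and -4.25 in KO samples, against -3.89, -3.85 and -3.82 in WT samples, without overlap. It cleared background on 0 KO arrays and averaged -4.27 in KO and -3.85 in WT samples. That probe had entered the test through the WT arrays only, which favours lower KO values, so no size of the difference is given. Fzd7, the only tested Frizzled gene with a positive difference, had -0.32, -0.01 and -0.33 in KO samples, against -0.36, -0.26 and -0.35 in WT samples (0.11, SE 0.11). Fzd2, Fzd4 and Fzd8 overlapped between groups, with differences of -0.02, -0.08 and -0.24. Fzd10 was above background on no array and Fzd6 on 1 KO and 1 WT array.

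All 3 co-receptor genes were tested, none had an unadjusted p under 0.05, and all 3 differences were negative. Lrp5, whose loss or gain of function changes bone mass in humans, had 0.98, 0.98 and 1.03 in KO samples, against 1.13, 1.07 and 1.18 in WT samples. The narrow spread kept these groups apart at a difference of -0.13 (SE 0.07). The other Lrp5 probe overlapped between groups at -0.41 (SE 0.32), and the mean of both probes differed by -0.27. Lrp4, which binds the bone inhibitor sclerostin, had 1.76, 1.64 and 2.14 in KO samples, against 2.02, 2.16 and 2.00 in WT samples, a difference of -0.21 (SE 0.14) with overlap. Its 3 other tested probes gave differences between -0.17 and -0.12. Lrp6, the close relative of Lrp5, had 1.40, 1.83 and 1.75 in KO samples, against 1.52, 1.98 and 1.63 in WT samples, with a difference of -0.05 (SE 0.16). Its other probe gave 0.01.

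R-spondins are secreted proteins that strengthen Wnt signals through the Lgr4, Lgr5 and Lgr6 receptors. Of the 6 R-spondin and Lgr members, Lgr4, Rspo2 and Rspo3 were tested, while Lgr5, Rspo1 and Rspo4 were well above background on no array. Lgr4 had -2.21, -2.30 and -2.16 in KO samples, against -2.03, -1.66 and -1.97 in WT samples. The groups did not overlap, and the difference was -0.34 (SE 0.11; limma adjusted p = 0.259). Of its 2 other probes, 1 was above background on a single WT array and the other on none.

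Rspo2 had the highest positive difference of the tested Wnt genes, but within wide groups. It read 1.07, 1.98 and 2.01 in KO samples, against 1.37, 1.62 and 0.59 in WT samples, a difference of 0.49 (SE 0.35) that was 0.80 without KO replicate 1 and 0.19 without WT replicate 3. In each group the lowest value came from the array with Xist signal. Rspo3 did likewise, with -2.36, -1.43 and -1.16 in KO samples, against -1.38, -1.06 and -2.04 in WT samples, and a difference of -0.16 (SE 0.37).

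Of the 10 secreted inhibitors, 6 were tested and 2 had an unadjusted p under 0.05. Wif1, which binds Wnt proteins outside the cell, had 0.58, 0.93 and 1.58 in KO samples, against 2.33, 2.24 and 1.47 in WT samples. The groups overlapped, because the WT array with Xist signal lay below KO replicate 3. The difference was -0.98 (SE 0.32), 1.98-fold lower in KO (limma adjusted p = 0.233).

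Notum, an enzyme that inactivates Wnt proteins by removing their lipid, had 3.82, 3.51 and 3.74 in KO samples, against 4.23, 3.86 and 3.93 in WT samples. These values did not overlap, with a difference of -0.32 (SE 0.13; limma adjusted p = 0.323). The other Notum probe shown above read -3.03, -3.52 and -3.34 in KO samples, against -3.81, -3.07 and -3.01 in WT samples, and its difference was -0.00 (SE 0.24). The lower value in KO therefore rested on the brightest probe.

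The secreted Frizzled-related proteins bind Wnt proteins through a domain like that of the receptors, and none of the tested Sfrp genes separated the groups. Sfrp1 had -1.36, -1.35 and -0.88 in KO samples, against -0.05, -0.93 and -1.99 in WT samples, a difference of -0.21 (SE 0.46) that was 0.26 without WT replicate 1 and -0.71 without WT replicate 3. Sfrp2 had -0.04, 0.23 and 0.75 in KO samples, against 0.63, 0.48 and -0.68 in WT samples, a difference of 0.17 (SE 0.37). Sfrp4 differed by -0.05 (SE 0.27). Within both groups the spread exceeded the difference. Dkk3, a divergent Dickkopf family member, had 4.12, 4.55 and 4.82 in KO samples, against 4.53, 4.65 and 4.34 in WT samples (-0.01, SE 0.18). Dkk1, which blocks Lrp5 and Lrp6, was not tested. It read -6.44, -6.29 and -5.92 in KO samples, against -4.98, -3.99 and -4.95 in WT samples, and only WT replicate 2 was well above background. Dkk2 and Sfrp5 were each above background on at most 1 array per group, and Dkk4 was so on 2 KO arrays by 1 of its 2 probes.

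In the cytoplasm, 5 of 5 members were tested. Axin2, a scaffold of the complex that destroys beta-catenin and itself a known transcriptional target of the pathway, had -3.84, -4.47 and -3.81 in KO samples, against -3.65, -2.60 and -2.52 in WT samples. The groups did not overlap, but the lowest WT value was close to the highest KO value, and only 1 KO array was well above background. Axin2 entered the test through the WT arrays only, which fixed its side, and the measured difference of -1.11 (SE 0.33) rests mostly on KO signals not well above background. The untested Axin2 probe was above background on no array and bears on neither direction.

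The gene of beta-catenin itself, Ctnnb1, had 3.53, 3.67 and 3.63 in KO samples, against 3.55, 3.71 and 3.71 in WT samples. The groups overlapped, with a difference of -0.04 (SE 0.08), and its 2 other tested probes gave 0.18 (SE 0.12) and -0.03 (SE 0.10). Axin1, the counterpart of Axin2 in the destruction complex, had 2.11, 2.04 and 2.18 in KO samples, against 1.97, 2.10 and 2.09 in WT samples, and differed by 0.06 (SE 0.08). Nkd1, which binds Dishevelled and dampens the signal, had -3.25, -2.74 and -2.60 in KO samples, against -2.88, -2.19 and -2.61 in WT samples, a difference of -0.30 (SE 0.23) with overlap, which was -0.11 without KO replicate 1 or without WT replicate 2. Its relative Nkd2 had -0.00 (SE 0.16) by its brightest probe and -0.24 (SE 0.23) by the other.

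Tcf7, also called TCF-1, binds DNA with beta-catenin and is known both as a mediator and as a target of the pathway. Among the tested Wnt genes it had the smallest p. It read -1.82, -2.01 and -1.73 in KO samples, against -1.04, -0.84 and -1.15 in WT samples. The gap between the groups exceeded the spread within either. The difference was -0.84 (SE 0.12), 1.79-fold lower in KO (limma adjusted p = 0.0555). The other tested probe of Tcf7, shown above beside it, read -1.79, -2.22 and -1.82 in KO samples, against -1.20, -1.06 and -1.13 in WT samples, a difference of -0.81 (SE 0.13). A further Tcf7 probe was well above background on no array.

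The adjusted p of Tcf7 sat near the threshold and crossed it under some processing. It was 0.0499 when arrays were centred on their medians, 0.0373 after normexp correction and quantile normalization and 0.0323 with an intensity trend in the variance, and it lay between 0.0557 and 0.184 under the remaining alternatives. The difference stayed between -0.93 and -0.68 throughout.

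The remaining nuclear factors overlapped between groups. Lef1, the relative of Tcf7 that is itself a known target, had -4.13, -3.51 and -3.74 in KO samples, against -3.81, -3.33 and -3.06 in WT samples, with 1 KO array well above background and a difference of -0.39 (SE 0.23) that was -0.05 without the arrays with Xist signal. Tcf7l1, mostly a repressor, had -1.79, -1.71 and -1.24 in KO samples, against -1.45, -1.79 and -1.52 in WT samples (0.01, SE 0.17). Tcf7l2 had 1.23, 1.31 and 1.22 in KO samples, against 1.27, 1.39 and 1.22 in WT samples (-0.04, SE 0.08), and its 3 other tested probes gave differences between -0.21 and -0.06.

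**Figure D2:**
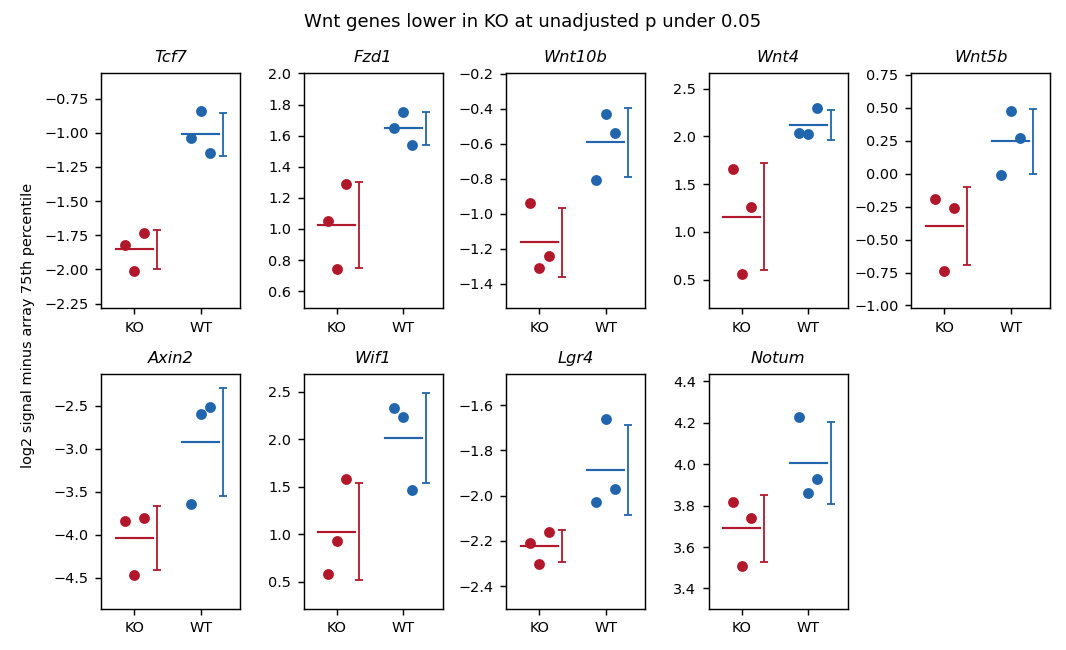
Log2 signal minus the array's 75th percentile (vertical axis, scaled separately for each gene) of the 9 Wnt genes with an unadjusted p under 0.05; points are the 3 KO (red) and 3 WT (blue) samples, horizontal lines group means and bars 1 SD. KO and WT values separate in 8 panels and overlap for Wif1, where WT replicate 3 reads 1.47 and KO replicate 3 reads 1.58.

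In 16 genes more than 1 probe was tested. Their probes gave differences of the same sign in 13 genes and of opposite signs in Ctnnb1, Lrp6 and Wnt7b, all with values near 0. The genes Tcf7 and Wnt5b were thus lower in KO at an unadjusted p under 0.05 by both of their tested probes. So was Wnt10b, but its other probe passed the filter through the WT arrays only. Of the 60 tested probes, 13 were lower and 0 higher at that p. The share over all probes was not counted, so this count has no baseline, and several of these probes belong to the same gene. Some of the 60 passed through the WT arrays only, which favours lower KO values, so this count is a description.

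Promoter windows are shown for Wnt5b and Fzd1 because Tcf/Lef factors are known to bind CTTTGAT-like sites and both genes were among those with separate groups. RefSeq windows on build GRCm38.p6 were matched for 37 of the 57 genes, some with several start sites, and the 250 bases before each start were searched on both strands for CTTTGAT and for its core CTTTG, which every CTTTGAT contains. CTTTGAT occurred in 2 of 46 windows of Wnt genes (4.35%, in Wnt5b and Wnt11), beside 3.21% of 32851 windows of all genes. CTTTG occurred in 20 of the 46 (43.5%), beside 48.6% of all windows. Both shares were close to those of all genes. The searched windows of Tcf7, Wnt10b, Wnt4 and Axin2 held neither, and such a match is a string of letters, not a shown binding site. In the sequences below, 5′ to 3′ on the gene's strand, capitals mark CTTTG or its reverse complement CAAAG. In the Wnt5b window, the CTTTG followed by at is the CTTTGAT match, and 2 other Wnt5b start sites lacked it.
Wnt5b, chr6:119449387-119449636, minus strand: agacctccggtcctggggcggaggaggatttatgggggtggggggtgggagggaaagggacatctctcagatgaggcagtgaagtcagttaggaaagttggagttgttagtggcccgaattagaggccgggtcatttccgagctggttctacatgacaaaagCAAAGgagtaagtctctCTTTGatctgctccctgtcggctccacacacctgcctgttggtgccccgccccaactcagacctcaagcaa
Fzd1, chr5:4758217-4758466, minus strand: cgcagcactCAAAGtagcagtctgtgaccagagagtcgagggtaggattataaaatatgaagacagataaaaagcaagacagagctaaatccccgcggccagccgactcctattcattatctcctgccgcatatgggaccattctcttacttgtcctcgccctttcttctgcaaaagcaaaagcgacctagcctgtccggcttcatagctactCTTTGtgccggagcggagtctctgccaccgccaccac

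The arrays with Xist signal held low values of several Wnt genes in both groups. In 8 of the 38 tested genes (21.1%), namely Dkk3, Nkd2, Rspo2, Rspo3, Sfrp1, Sfrp2, Sfrp4 and Wif1, both arrays held the lowest value of their group, beside 13% of all genes tested. Both held the highest value in 4 Wnt genes (10.5%: Fzd2, Wnt4, Wnt7b and Wnt9a), beside 14.9% of all genes. Most of the first set are secreted inhibitors or R-spondins. Without these 2 arrays, 8 Wnt genes were lower at an unadjusted p under 0.05, 6 of them among the 9 above, with Axin2, Lgr4 and Notum no longer so, and the median difference was -0.14. Rspo2 was then higher in KO, by 0.50 (limma adjusted p = 0.269). With Xist signal as a term in the fit, 9 genes were lower and Rspo2 alone was higher (limma adjusted p = 0.108).

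**Figure D3:**
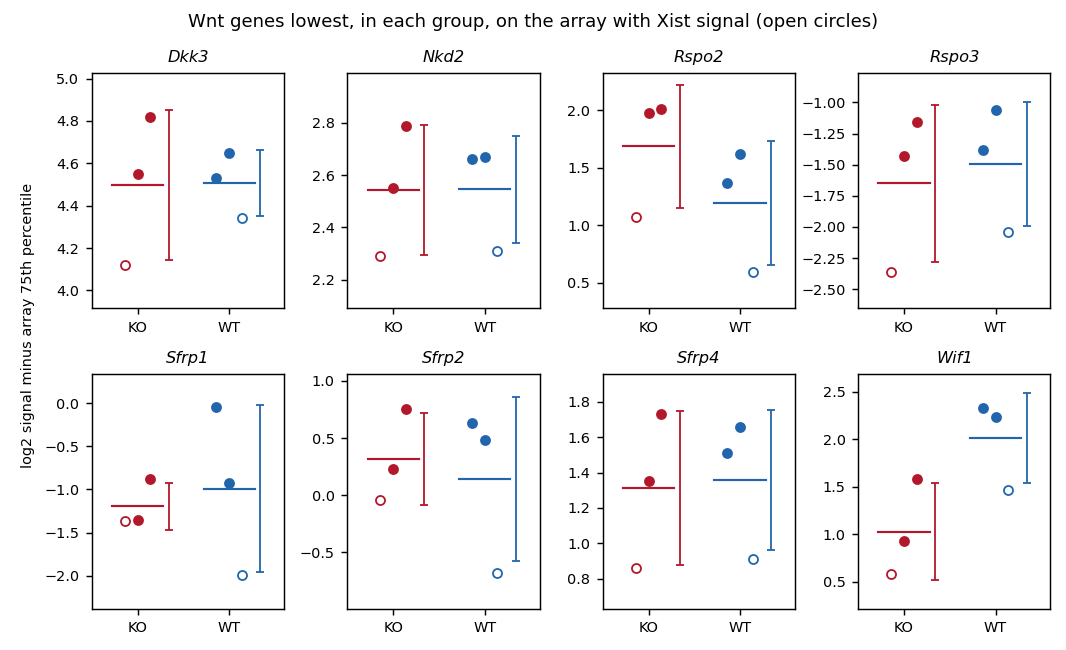
Log2 signal minus the array's 75th percentile (vertical axis, scaled separately for each gene) of the 8 Wnt genes whose lowest value in each group came from an array with Xist signal; open circles are those arrays, filled circles the other samples, lines group means and bars 1 SD. Rspo2 and Rspo3 read 1.07 and -2.36 on that KO array, and 0.59 and -2.04 on that WT array.

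Further pathway genes outside the naming rule were read from a list of 65, of which 64 were on the array and 57 were tested. Their signs were evenly split, with 29 negative and 28 positive differences and a median of -0.00. Of all genes, 44.2% were negative. The split differed by step. Secretion, receptor and inhibitor genes had 2, 6 and 3 negative and 0, 1 and 0 positive differences. Cytoplasm genes had 12 and 13, nuclear genes 2 and 9, and targets 4 and 5. At an unadjusted p under 0.05, 10 of the 57 were lower and 3 higher in KO, beside 8.03% and 6.94% of all genes (1234 and 1066 of 15371). Values did not overlap in 10 lower and 6 higher genes, beside 10.4% and 12% of all genes. Celsr1, a cadherin of planar cell polarity, was the single gene past an adjusted p of 0.05. It read -5.59, -6.24 and -5.84 in KO samples, against -3.53, -3.64 and -4.23 in WT samples, and no KO array was well above background. Its probe entered the test through the WT arrays only, which fixed its side, and the p rests on KO signals not well above background. Its measured means were -5.89 in KO and -3.80 in WT samples (limma adjusted p = 0.0451). With KO signals raised to the lowest one well above background on each array, the fold of WT over KO was 1.08. The call was lost in 8 of the alternatives, among them those without KO replicate 2, KO replicate 3, WT replicate 1 or WT replicate 2 (adjusted p from 0.0651 to 0.144). Over all its alternatives the limma adjusted p ran from 0.0297 to 0.182.

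Of the secreted inhibitors on that list, Frzb (also Sfrp3), known as a Wnt inhibitor of cartilage, had -2.88, -3.56 and -2.72 in KO samples, against -1.82, -1.09 and -1.60 in WT samples. The groups were far apart, and both of its probes gave -1.55, 2.93-fold lower in KO (SE 0.27 for the brightest, limma adjusted p = 0.0715). Apcdd1, another extracellular inhibitor, gave -0.51 (SE 0.27) with overlap.

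Rnf43, a ubiquitin ligase that removes Frizzled receptors from the surface and is a known target of the pathway, had -2.80, -3.23 and -2.78 in KO samples, against -1.95, -1.92 and -2.24 in WT samples. Here too the groups did not overlap (-0.90, SE 0.15; limma adjusted p = 0.0715). Kremen1, a receptor for Dickkopf proteins, had 2.00, 2.07 and 2.02 in KO samples, against 2.44, 2.36 and 2.42 in WT samples (-0.38, SE 0.07; limma adjusted p = 0.0806). Its other tested probes disagreed, at -0.20 and 0.31, and the mean of its probes differed by -0.09. Frzb, Rnf43 and Kremen1 each passed the threshold after normexp correction with quantile normalization and with an intensity trend (limma adjusted p from 0.0367 to 0.0451).

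Other values of that list, named after they were seen, spanned all steps of the pathway. Porcn, which attaches the lipid that Wnt proteins need for secretion, differed by -0.65 (SE 0.12), while Wls, which carries them to the surface, differed by -0.10 (SE 0.11). Of 9 tested genes known as targets, 4 had a negative and 5 a positive difference, with a median of 0.01. Among them, Ccn4 (Wisp1) differed by -0.76 and Gja1, a gap junction protein of bone cells, by -0.60 (SE 0.15). The other 7 lay nearer 0, with Cd44 at 0.06 (SE 0.14), Id2 at 0.08 (SE 0.08), Postn at -0.07 (SE 0.18), Tnfrsf11b at 0.01 (SE 0.25), Ccn5 at 0.10, Myc at 0.01 (SE 0.09) and Ccnd1 at -0.10 (SE 0.15). Bcl9, a beta-catenin co-activator, differed by 0.43 (SE 0.13), but its other tested probes gave only 0.12 and 0.10. The co-repressor Tle1 differed by 0.30 (SE 0.12), and its other tested probes gave 0.25 and 0.24. The polarity gene Prickle1 differed by 0.63 (SE 0.12), against -0.71 by its other probe. None of these passed an adjusted p of 0.05.

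**Figure D4:**
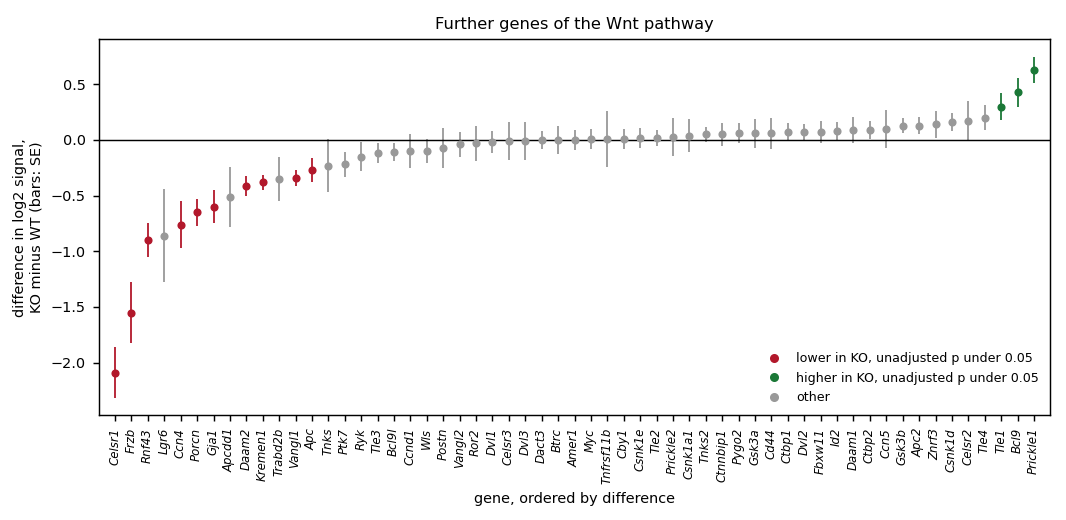
Difference in log2 signal, KO minus WT (vertical axis), of the 57 tested further pathway genes, ordered by difference; points are limma estimates and bars their SE, with red and green for an unadjusted p under 0.05 in the lower and higher direction. The values run from -2.09 (Celsr1, well above background on no KO array) to 0.63 (Prickle1), and most lie near 0.

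Marker genes of bone, cartilage and fat cells differed with the genotype beside the Wnt genes. Their counts at an unadjusted p under 0.05 stand beside 8.03% of all genes lower and 6.94% higher. Sums are on a linear scale relative to the array's 75th percentile. Osteoblast lineage genes summed to between 991 and 1.34e+03 in KO samples and between 1.5e+03 and 1.59e+03 in WT samples. Of these 16 genes, 13 were lower in KO at that p, with a median difference of -0.77. The differences of 2 were positive, and 1 was higher at that p. Of 5 tested chondrocyte genes, 3 were lower and 2 had positive differences, up to 0.41. The list summed to 6.32 to 9.23 in KO and 13.3 to 17.4 in WT samples, with Acan and Matn1 not tested. Of 8 adipocyte genes, 5 were higher in KO and 1 had a negative difference (-0.41). The list summed to 130 to 162 in KO and 97.3 to 107 in WT samples. The ranges of these lists and of the macrophage list did not overlap between the groups.

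The macrophage and monocyte genes summed to 1.42e+03 to 1.51e+03 in KO and 1.32e+03 to 1.34e+03 in WT samples. Of their 14 differences 13 were positive, beside 8582 of the 15371 genes tested. In 5 genes the KO values lay wholly above the WT values, beside 12% of all genes. Only 1 of the 14 was higher at that p, near the 6.94% of all genes. Stromal progenitor genes, the list closest to the sorted cells, summed to 42.7 to 47.3 in KO and 38.8 to 46.4 in WT samples, with 1 of 11 lower and 2 higher and a median difference of -0.06. Sort marker genes summed to 77.9 to 84.7 in KO and 80.3 to 84.9 in WT samples, with 0 of 4 at that p. The endothelial, lymphocyte and neutrophil lists had 0 of 4, 0 of 3 and 0 of 6 tested genes at that p. The part of these cell types in the Wnt values was not tested. In bulk RNA such as this, fewer cells of a type and less RNA per cell cannot be told apart.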

How the data were processed

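Each sample's RNA was hybridised to 1 Agilent one-colour array. Per the file headers, the deposited intensity values are Agilent Feature Extraction 10.7.1.1 processed signals (background-subtracted and detrended), mean signals and backgrounds, with probe positions on mm9. Version 9.1 of that software stands in the submitters' processing notes. The deposited series table holds log2 values with nearly equal medians (6.1609 to 6.1613) and was used as an alternative; no source used here gives its further processing.

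Processed signals on the log2 scale, less the 75th percentile of each array, were tested with limma 3.58.1 in R 4.3.3 (lmFit, eBayes, two-sided, no covariate), with Benjamini-Hochberg adjustment over 15371 genes (1 probe each) or 28607 probes. Outlier spots (49 to 131 per array) were left out. RefSeq GRCm38.p6 named 32994 probes through accessions, 10224 through symbols and 520 through synonyms, and 10293 had no name. All 94 Wnt probes kept their file names.

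Members, lists, marker sets and alternatives were chosen with earlier results of these data known. Values in every sample are given, per role, for up to 4 genes with the smallest p, the brightest gene and a set of pathway genes, and for the 4 further pathway genes with the smallest p. The fit was tested on simulated data. Replicate numbers are shared between groups, and same-numbered arrays also shared a slide column. Same-numbered samples did not deviate together (correlations of 0.0556, 0.1537 and -0.0319), so no block was used in the main fit.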

Additional observations from a re-analysis of the deposited data

How the results depend on the processing

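The Wnt counts were recomputed under 16 alternatives. The 9 genes with lower values in KO (unadjusted p under 0.05) all kept their negative difference wherever they were tested, and Tcf7, Fzd1, Wnt10b, Wnt4 and Wnt5b stayed under that p in each. Notum, Wif1, Lgr4 and Axin2 did not in some, and the count of lower genes ranged from 6 (without KO replicate 2) to 12 (normexp and quantile normalization). For genes passing an adjusted p of 0.05 in limma, against 0, the count was 1 with median centring, 1 with normexp and 1 with an intensity trend (Tcf7 each time), and 0 to 1 over the fits without 1 sample. The 1 was Dkk4 without KO replicate 2, which passed the filter only with that dim array left out, and then through the KO arrays only, so this call shows nothing. For probes it was 2 with normexp, 2 with the trend and 0 to 1 without 1 sample. Genes higher at an unadjusted p under 0.05, against 0, numbered 8 without the filter on dim probes, 1 without the arrays with Xist signal, 1 with Xist signal as a term (an alternative chosen after seeing the data) and 0 to 1 without 1 sample, where the gene was Rspo2 without KO replicate 1 and Dkk4 without KO replicate 2.

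Without the filter the median was -0.0418 in place of -0.21, and 24.3% of all genes were then higher in KO. The lowest signals well above background were -4.15 to -3.60 on KO and -4.62 to -4.41 on WT arrays, which limits what dim probes show. The replicate block left 0 genes called over the whole array, against 27, and gave 11 lower Wnt genes, with Wif1 no longer among them. It changed no adjusted call of a Wnt gene, while Celsr1 lost its call (limma adjusted p = 0.182). Over all genes, calls numbered 92 with median centring, 281 with normexp, 280 with the trend, 17 with probes above background on all arrays, 3 with the Xist term, 10 without the Xist arrays, 0 without the filter (limma; unadjusted, 1208 lower and 6602 higher) and 0 to 76 without 1 sample. Among values of named genes, 21 of 492 had another sign, all in Ctnnb1, Dkk3, Lrp6, Rspo3, Sfrp1, Sfrp2, Tcf7l1 or Tcf7l2. Celsr1 differed by -0.83 with normexp, in place of -2.09. Slide and scan as a block were not run, since all arrays shared 1 slide and 1 scan. The replicate block was also a block on slide column, since same-numbered KO and WT arrays shared a column.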

Other observations

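Some Wnt genes that did not pass the filter were well above background on part of the arrays only. Dkk4, a Dickkopf inhibitor, read -1.69, -6.31 and -2.32 in KO samples, against -6.74, -6.95 and -6.92 in WT samples, so KO replicates 1 and 3 were well above background and KO replicate 2 and all WT samples were not. Its other probe was above background on no array. Wnt7a was well above background by 1 probe on KO replicate 3 (-3.45) and WT replicate 3 (-2.56), and the rest lay between -6.04 and -5.72 in KO and between -6.94 and -6.73 in WT samples. Fzd6 read -3.58, -4.50 and -3.76 in KO samples, against -5.42, -4.55 and -4.16 in WT samples, with 1 array of each group above background. Wnt7a and Fzd6 did not separate the groups.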
